A study of Mus musculus with 2 samples.

Results

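The genes described here are 9 transcription factors of the oligodendrocyte lineage: Olig1, Olig2, Nkx2-2, Nkx6-2, Sox8, Sox10, Myrf, Tcf7l2 and Zfp488. They were chosen by name from what is known of the lineage, out of 21951 protein-coding genes of the GENCODE M21 annotation, and they lie on 7 chromosomes. Prrc2a-bound RNA had been recovered from whole brain of wild type C57BL/6J male mice aged 4 weeks by immunoprecipitation with a Prrc2a antibody, trimmed with micrococcal nuclease and sequenced (RIP-seq). The protocol started from 3 brains, and there were 2 replicates of 1 condition with no Prrc2a-deficient group. Each replicate was available as a list of peaks, the stretches of genome where immunoprecipitated reads were enriched, with 18129 peaks in replicate 1 and 18671 in replicate 2. The lists give no read counts, so the depth behind a peak was unknown and no peak had a counting interval. The precipitate came from all cells of the brain, and for a transcript confined to 1 lineage fewer cells of that type and less RNA per cell cannot be told apart. Where a gene had no peak, absence of binding and too few reads for a call cannot be separated.

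Oligodendrocytes, the myelin-forming cells of the brain, arise from precursors whose identity is set by a small group of DNA-binding proteins, and a later group of factors switches on the myelin genes. Olig1 and Olig2 are basic helix-loop-helix proteins, and Olig2 specifies the precursors. Nkx2-2 and Nkx6-2 are homeodomain proteins. Sox8 and Sox10 belong to the SoxE family, together with Sox9, and Sox10 drives the myelin genes directly. Myrf is a membrane-tethered factor needed for the myelin program, Tcf7l2 is a nuclear partner of β-catenin in Wnt signaling, and Zfp488 is a zinc finger protein that cooperates with Olig2. Prrc2a is a large proline-rich RNA-binding protein that the study examined as a reader of N6-methyladenosine, a methyl mark most often placed on the A of GGAC and, within it, GGACT.

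The RNA under the peaks of these genes differed in sequence from one peak to the next, within Nkx2-2 as well as between genes. The stretches of coding sequence (CDS) that the peaks of both replicates had in common are printed first, because both libraries had a peak over these bases of a reading frame. All sequences are GRCm38 reference in the direction of the gene, 5′ to 3′, and capitals mark GGAC, or GGACT where a T follows.
Olig2 CDS, chr16:91226512-91226651, plus strand: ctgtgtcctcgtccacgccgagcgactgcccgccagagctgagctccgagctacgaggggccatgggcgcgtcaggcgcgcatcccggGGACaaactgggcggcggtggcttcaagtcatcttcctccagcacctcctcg
Zfp488 upstream CDS, chr14:33970688-33970967, minus strand: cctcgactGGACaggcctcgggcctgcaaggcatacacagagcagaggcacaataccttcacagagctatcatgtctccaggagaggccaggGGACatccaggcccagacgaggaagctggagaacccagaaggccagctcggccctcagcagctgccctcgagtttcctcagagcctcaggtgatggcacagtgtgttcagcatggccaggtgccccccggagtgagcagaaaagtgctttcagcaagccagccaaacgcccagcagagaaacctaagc
Zfp488 downstream CDS, chr14:33970285-33970519, minus strand: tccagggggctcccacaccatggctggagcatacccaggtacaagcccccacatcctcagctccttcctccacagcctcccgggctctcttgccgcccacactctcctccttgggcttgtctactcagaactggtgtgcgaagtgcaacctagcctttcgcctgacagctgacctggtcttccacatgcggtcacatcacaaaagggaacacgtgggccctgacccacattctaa
The Olig2 stretch was 140 bases long and held 1 GGAC. The upstream Zfp488 stretch was 280 bases long with 2, and the downstream one was 235 bases long with none. Of all exonic windows of 140 bases in protein-coding genes, 39.0% hold a GGAC on the gene's strand, against 61.5% of windows of 280 bases and 55.5% of windows of 235 bases. The first base of the Olig2 stretch is the C of the GGACT printed in the next set, which the boundary of the replicate 1 peak cut.

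Outside these stretches, the GGAC nearest to the middle of each remaining CDS or 3′ untranslated region (3′UTR) peak that held one is shown with 12 bases on either side.
Olig2 replicate 2, chr16:91226497-91226524, plus strand: gcttcacaggagGGACTgtgtcctcgtc
Olig2 replicate 1, chr16:91226771-91226798, plus strand: caacatcgccatGGACggcctgcgggag
Sox8 replicate 1, chr17:25567683-25567710, minus strand: cccacagaggcaGGACcccttcggccac
Tcf7l2 replicate 2, chr19:55931701-55931728, plus strand: caatggggctctGGACctgccacctgcc
Myrf replicate 2, chr19:10209699-10209726, minus strand: caggtcagccttGGACccttgatcctgg
Zfp488 replicate 2, chr14:33969938-33969965, minus strand: catgggatagtgGGACccatggctcagg
Of exonic windows of this length, 28 bases, 9.01% hold a GGAC and 2.46% a GGACT. These 6 were cut around a GGAC, so those shares are no baseline for them. Over all protein-coding exons, 99316 of 362084 GGAC were GGACT. Only the first of these 6 windows holds a GGACT. The windows of Myrf and Zfp488 lie in the 3′UTR and the others in CDS.

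The peaks whose exonic bases held no GGAC outside CDS are represented by their central 30 bases.
Nkx2-2 3′UTR, common to both replicates, chr2:147183337-147183366, minus strand: ctttgtcgtttgttttcggtgggttatgtt
Nkx2-2 upstream exon, common to both replicates, chr2:147193956-147193985, minus strand: gcggaactggcacgcgagtggctccgggag
Tcf7l2 5′UTR, replicate 1, chr19:55741994-55742023, plus strand: ctgacttcttcttgttgttgttgttgtttt
These 30 bases were 40.0% G and C in the Nkx2-2 3′UTR, 73.3% in the upstream exon of the same gene and 33.3% in the leader of Tcf7l2. Over whole peaks of the 9 genes the range was 37.4% to 66.5%, and the replicate 1 peaks of Nkx2-2 alone were at 39.1% and 60.5%. The same range over all peaks was not computed, so this one cannot be read as a trait of these genes.

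Peaks lay over 6 of the 9 genes, and all 15 of them touched exons. Replicate 1 had 7 peaks over 5 genes, 2 each on Nkx2-2 and Zfp488 and 1 each on Olig2, Sox8 and Tcf7l2. Replicate 2 had 8 peaks over 5 genes, 3 on Zfp488, 2 on Nkx2-2 and 1 each on Olig2, Myrf and Tcf7l2. A peak of replicate 1 that overlapped a peak of replicate 2 by at least 1 bp was called shared. Olig2, Nkx2-2 and Zfp488 had shared peaks, 5 in all. Olig2 was no longer among them when at least 50% of both peaks had to overlap, or when both had to have a fold enrichment of at least 2. Sox8, Myrf and Tcf7l2 had peaks that the other replicate did not have at that place. Olig1, Sox10 and Nkx6-2 had no peak in either replicate.

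Against all protein-coding genes, 33.3% of the factors had a shared exonic peak where the background was 12.0%, and 66.7% had an exonic peak in either replicate where the background was 24.0%. Within a replicate, 55.6% of the factors had an exonic peak, against 16.5% of protein-coding genes in replicate 1 and 21% in replicate 2. With 9 genes, 1 gene more or less moves these shares by a large step, and the genes were chosen with earlier results of these data known, so no test was made.

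**Figure D1:**
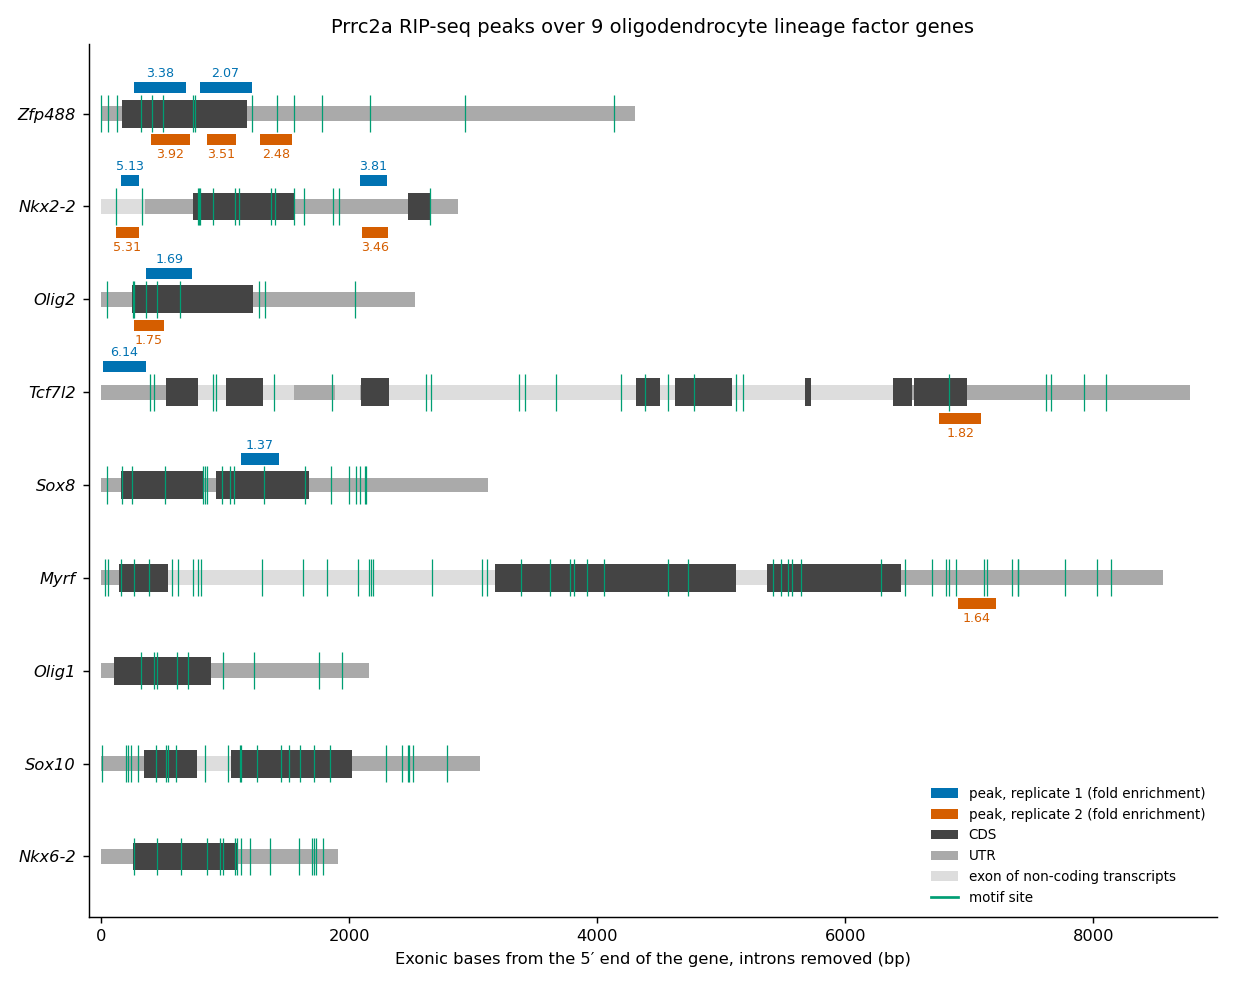
Peaks of replicate 1 (blue, above) and replicate 2 (orange, below) over the 9 genes, drawn on the exonic bases of each gene from its 5′ end with introns removed (horizontal axis, bp); the number beside a peak is its fold enrichment. Dark boxes are CDS, grey boxes untranslated regions, pale boxes exons of non-coding transcripts, and green lines GGAC sites. The peaks of Olig2, Nkx2-2 and Zfp488 overlap between replicates, those of Tcf7l2 lie at opposite ends of the gene, and Olig1, Sox10 and Nkx6-2 have none.

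Olig2, which specifies the precursors, lies at chr16:91225457-91228677 on the plus strand. Its peak was 372 bp wide in replicate 1 and 239 bp wide in replicate 2, both wholly within the CDS. In replicate 1 it covered codons 38 to 162, and in replicate 2 codons 5 to 84. Common to both were 37.6% of the bases of the first and 58.6% of those of the second. They made up 29.7% of the bases that either covered, where the median over all 8281 shared exonic pairs was 55.1%, and 23.7% of those pairs had a lower share. The middles of the peaks were 166 bases apart. The fold enrichment, the ratio of immunoprecipitated signal to the background of the peak caller, was 1.69 in replicate 1 and 1.75 in replicate 2, or 1.72 ± 0.0456 (SD, n = 2). Both values were low for these libraries, since 13.8% of exonic peaks in replicate 1 and 12.9% in replicate 2 were less enriched. Of the 5 GGAC sites in the Olig2 CDS, the one whose A is CDS base 203 was covered in both replicates, the one at CDS base 386 in replicate 1 and the one at CDS base 112 in replicate 2. The last of these is a GGACT, 1 of 2 in the Olig2 CDS, and the other, at CDS base 5, lay under no peak.

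The quantitative PCR primer pairs listed by the study fell on the Olig2 peaks unequally. The amplicon of the pair named for the Olig2 peak is 69 bp long and spans CDS bases 109 to 177. Of these, 65 bases lay in the replicate 1 peak and 69 in the replicate 2 peak, so both peaks covered nearly all of it. The bases outside the replicate 1 peak include the A at CDS base 112. The study reports that A as the methylated site by which Prrc2a acts on Olig2. A pair named Olig2 gave an amplicon of 90 bp at chr16:91226439-91226528, with 17 bases in the replicate 1 peak and 90 in the replicate 2 peak. A further pair gave an amplicon of 107 bp at chr16:91226794-91226900, with 90 bases in the replicate 1 peak and none in that of replicate 2. The pairs for Nkx2-2, Olig1, Nkx6-2 and Sox10 gave amplicons outside every peak.

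Olig1, the neighbor of Olig2 on the same chromosome at chr16:91269772-91271933, had no peak. Its exons are 2162 bases long, against 2530 in Olig2, and 8.04% of protein-coding genes in their length group had an exonic peak in either replicate. The nearest peak was that of Olig2 in both replicates, 42.9 kb away in replicate 1 and 43.1 kb in replicate 2. Its single exon held 9 GGAC, as many as the exons of Olig2, and 5 of them were in the CDS, also as many as in Olig2. At its locus a non-coding gene, Gm15966, runs on the opposite strand, and the peak lists carry no strand.

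Nkx2-2, the homeodomain factor at chr2:147177546-147194243 on the minus strand, had the most closely placed pair of peaks among the 9 genes. In its 3′UTR the replicate 1 peak was 220 bp wide and the replicate 2 peak 206 bp wide, with 200 bases in common. The shared part was 88.5% of the bases that either covered, more than in 83.2% of all shared exonic pairs, and the middles were 13 bases apart. The peaks began 523 bases after the stop codon in replicate 1 and 543 bases after it in replicate 2. Their fold enrichment was 3.81 and 3.46, or 3.63 ± 0.248 (SD, n = 2). In replicate 1, 84.5% of exonic peaks were less enriched, and in replicate 2, 78.4%.

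The other pair on Nkx2-2 lay near the far 5′ end of the gene and had the highest enrichment of the shared peaks, 5.13 in replicate 1 and 5.31 in replicate 2. Their mean was 5.22 ± 0.124 (SD, n = 2), above 94.3% of exonic peaks in replicate 1 and 95.0% in replicate 2. The replicate 2 peak, 362 bp wide, contained the whole 220 bp peak of replicate 1. These were the 2 peaks of the 9 genes that were not wholly exonic, with 142 exonic and 78 intronic bases in replicate 1 and 188 and 174 in replicate 2. In GENCODE the exons there belong to 2 of the 4 Nkx2-2 transcripts, neither of them coding, while RefSeq draws them as first exons of coding models, 3 under the replicate 1 peak and 4 under that of replicate 2, all of them predicted. The antisense gene Nkx2-2os also spans this place without an exon under the peaks, and without strand the reads of the 2 genes could not be separated. The fold enrichment of the replicate 1 peak was also that of 144 other peaks in the list, and that of the replicate 2 peak was that of 57 others. Such repeated values were held by 2 of the 15 peaks, both of them here. Across all exonic peaks, 9.94% in replicate 1 and 12.2% in replicate 2 had a value held by at least 10 peaks. Across all peaks, exonic or not, the shares were 24.8% and 15.3%. No peak lay over the CDS of Nkx2-2, whose 998 bases held 9 GGAC.

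Nkx6-2, the other homeodomain factor, at chr7:139579376-139582797, had neither a peak nor one nearby. The nearest peak was 178 kb away in replicate 1 and 251 kb away in replicate 2. It is the shortest of the 9 genes by exonic bases, 1907, and had the densest GGAC, 16 sites or 8.39 per kb.

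Zfp488, the zinc finger partner of Olig2 at chr14:33967070-33978764 on the minus strand, was the most extensively covered of the 9. Peaks covered 19.4% of its exonic bases in replicate 1 and 18.7% in replicate 2, and 26.1% in either. In its upstream CDS the replicate 1 peak covered codons 35 to 173 with a fold enrichment of 3.38, and the replicate 2 peak codons 80 to 184 with 3.92. These had 280 bases in common, 62.4% of the bases that either covered, and a mean of 3.65 ± 0.377 (SD, n = 2). In its downstream CDS the replicate 2 peak, codons 229 to 307 with a fold enrichment of 3.51, lay wholly within the replicate 1 peak, which began at codon 210 and ran 33 bases past the stop codon with a fold enrichment of 2.07. This pair was the one most unequal between replicates, with a log2 ratio of replicate 1 to replicate 2 of -0.77 and a mean of 2.79 ± 1.02 (SD, n = 2). The same ratio over all shared exonic pairs was -0.23 at the median, with an SD of 0.52. Replicate 2 had 1 more peak, 256 bp wide with a fold enrichment of 2.48, which began 103 bases after the stop codon and lay 70 bases from the nearest peak of replicate 1.

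Of the 5 GGAC in the Zfp488 CDS, 3 lay under a peak. Those with their A at CDS bases 248 and 332 were covered in both replicates, and the one at base 161, a GGACT, in replicate 1. Those at bases 573 and 590, the former a GGACT, lay between the upstream and downstream peaks of both replicates.

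Among the SoxE factors, Sox8 had 1 peak and Sox10 none. The Sox8 peak, in replicate 1, was 311 bp wide at chr17:25567573-25567883 and covered codons 282 to 385 of the CDS. Its fold enrichment of 1.37 was the lowest of the 15, and 0.905% of exonic peaks in replicate 1 were less enriched. The nearest replicate 2 peak was 24.6 kb away. Sox10, at chr15:79154908-79165240, had its nearest peaks 29.2 kb away in replicate 1 and 20.9 kb away in replicate 2, both over the neighboring gene Micall1. The exonic lengths of the pair were close, 3118 bases in Sox8 and 3051 in Sox10, and Sox10 held more GGAC, 25 against 18. Sox9, which in the brain is used by astrocytes and by early glial precursors, had 4 exonic peaks in each replicate, and all 4 of replicate 1 were shared.

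Myrf and Tcf7l2, the longest of the 9 genes with 8562 and 8775 exonic bases, had no shared peak. The Myrf peak, in replicate 2, was 305 bp wide at chr19:10209622-10209926 and began 458 bases after the stop codon, in the 3′UTR. Its fold enrichment was 1.64, and 7.86% of exonic peaks in that replicate were less enriched. The nearest replicate 1 peak was 73.1 kb away. Myrf held 47 GGAC in its exons, of which 2 were under the peak.

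Tcf7l2 at chr19:55741820-55933654 had 1 peak in each replicate, at opposite ends of the gene and 189 kb apart. The replicate 1 peak was 342 bp wide, began 18 bases after the start of the gene and lay in the 5′UTR. Its fold enrichment of 6.14 was the highest of the 15, above 97.3% of exonic peaks in replicate 1. The replicate 2 peak was 336 bp wide and lay across a stop codon, with 220 bases in CDS and 116 in the 3′UTR. Its fold enrichment was 1.82, above 16.2% of exonic peaks in replicate 2. Of the 22 GENCODE transcripts of the gene, 5 have an exon under the first peak and 10 have one under the second. In RefSeq 26 of 55 have one under the first and all 55 under the second. Its introns, 183060 bases, held no peak.

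**Figure D2:**
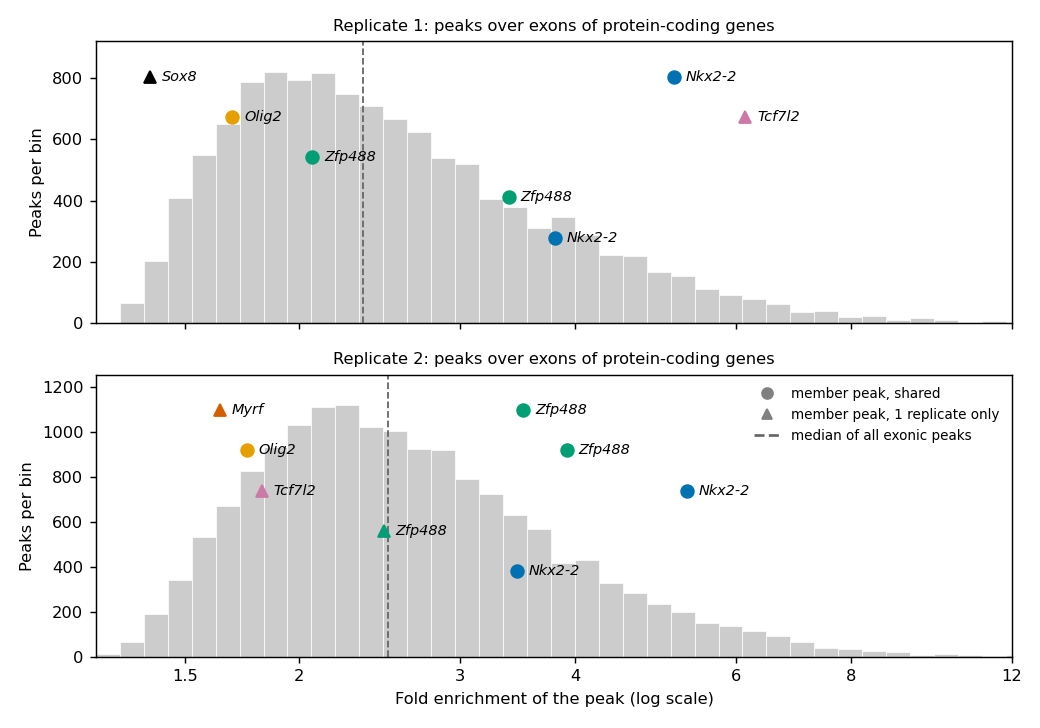
Fold enrichment of the peaks on the 9 genes (colored symbols, log horizontal axis) against the histogram of all peaks over exons of protein-coding genes in the same replicate (grey bars, peaks per bin). Circles are shared peaks, triangles are peaks of 1 replicate, the height of a symbol has no meaning, values above 12 are not drawn, and the dashed line is the median of all exonic peaks, 2.35 in replicate 1 and 2.5 in replicate 2. Olig2, Sox8 and Myrf lie left of the line, and Nkx2-2 lies right of it in both replicates.

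Across the 15 peaks, the median fold enrichment was 3.38 in replicate 1, with a range of 1.37 to 6.14, and 2.97 in replicate 2, with a range of 1.64 to 5.31. The medians of all exonic peaks were 2.35 and 2.5, and 4 of the 7 peaks and 4 of the 8 lay above them. Nkx2-2 and Zfp488 supplied 4 of the 7 and 5 of the 8. With only the highest peak of each of the 5 genes counted, the median was 3.38 in replicate 1 and 1.82 in replicate 2, the latter below that of all exonic peaks. Of the peaks on the 9 genes, 71.4% in replicate 1 and 62.5% in replicate 2 were shared, against 61.3% and 47.9% of all exonic peaks. In 4 of the 5 shared pairs the value was lower in replicate 1. Over all shared exonic pairs the median log2 ratio of replicate 1 to replicate 2 was -0.23, the same direction, so this is no trait of these genes. Assigned by most of their bases, 8 of the 15 were CDS peaks, 4 belonged to 3′UTR, 2 to exons of non-coding transcripts and 1 to 5′UTR. The same split of all exonic peaks was not counted, so no preference of these genes for a region can be read from it. None of the 15 touched an exon of another gene. The introns of the 9 genes, 239357 bases in all, held none, whereas the rate over the introns of all protein-coding genes, 4.18 peaks per Mb in replicate 1 and 1.3 in replicate 2, would place 1.0 and 0.311 peaks in them. At this length an absence of intronic peaks could not be distinguished from that rate.

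Across all protein-coding genes, longer exonic sequence went with a larger share of genes having a peak, from 1.73% with a shared peak in the shortest group to 32.1% in the longest. In their shared peaks the 9 genes did not follow that order. Of 5 equal groups of genes by exonic length, in the one from 1687 to 2853 bases 3.08% had a shared exonic peak, and Olig2 had one while Olig1 and Nkx6-2 did not. In the group from 2854 to 4268 bases the share was 7.36%, and Nkx2-2 had a shared peak while Sox8 and Sox10 did not. Zfp488 was in the next, where the share was 15.6%. Myrf and Tcf7l2 were in the longest, where 32.1% of genes had a shared peak and neither of them did. Members with a peak in either replicate numbered 1 of 3, 2 of 3, 1 of 1 and 2 of 2 in these groups, in order of length. The shares of all genes there were 8.04%, 19.0%, 33.7% and 55.5%. With 1 to 3 members in a group, these are single genes and not rates.

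**Figure D3:**
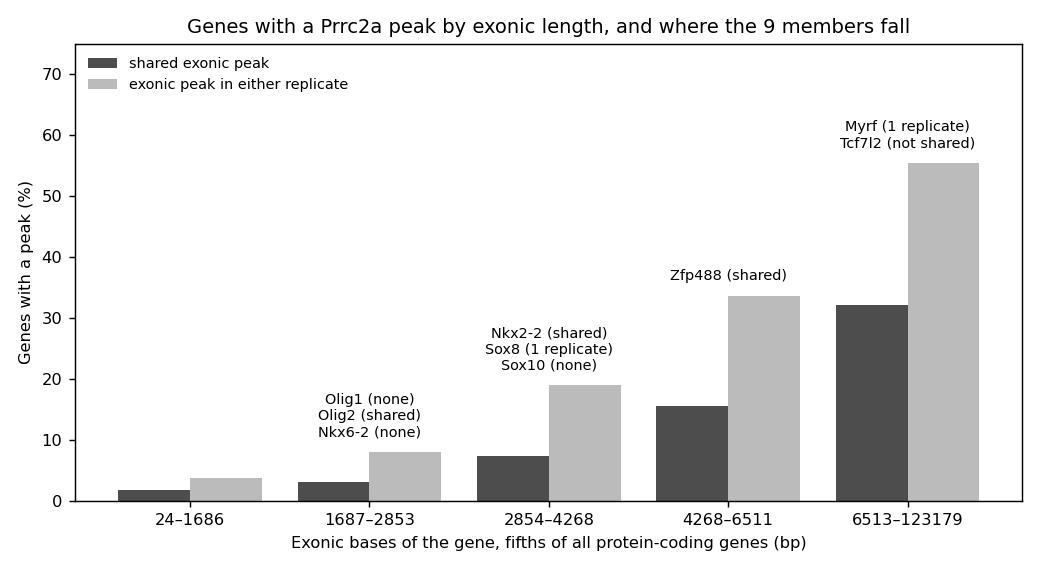
Share of protein-coding genes with a shared exonic peak (dark bars) and with an exonic peak in either replicate (light bars), in percent, in 5 groups of equal number by exonic length (horizontal axis, bp). The names above the bars are the members in each group with what each had: a shared peak, a peak in 1 replicate, peaks in both that did not overlap (not shared), or none. The share with a shared peak goes from 1.73% to 32.1%, while the 3 genes with shared peaks lie between the shortest and the longest group.

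GGAC was no denser under the peaks than elsewhere in the exons of these genes. Their exons held 176 GGAC, of which 36 were GGACT. Under the replicate 1 peaks there were 6 in 2220 exonic bases, 2.7 per kb, against 4.85 per kb elsewhere in the same exons. Under the replicate 2 peaks there were 8 in 2080 bases, 3.85 per kb against 4.77. Within CDS the values were 4.05 per kb under peaks against 5.78 outside them in replicate 1, and 4.96 against 5.63 in replicate 2. Over all protein-coding exons the density was 3.72 GGAC per kb. GGACT occurred once under the peaks of each replicate, in Zfp488 and in Olig2 respectively, which is 0.45 per kb in replicate 1 and 0.481 in replicate 2, against 1.02 over all protein-coding exons. Elsewhere in the exons of the 9 genes it was 0.998 and 0.994 per kb. Within CDS the order differed between replicates, 0.674 per kb under peaks against 0.876 outside them in replicate 1 and 0.991 against 0.841 in replicate 2, each resting on that 1 site. Of the 15 peaks, 10 held a GGAC anywhere in their width and 5 did not. The 10 include both peaks at the upstream exon of Nkx2-2, whose exonic bases held none. The share over all exonic peaks was not counted. Of exonic windows, 55.5% of those of 235 bases and 61.5% of those of 280 bases hold a GGAC, so the count shows no excess. The letters of a motif show neither methylation nor binding, and the lists give no summit within a peak.

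Other genes of the lineage were counted in the same way, with no test between lists. Among 32 other regulators of the lineage, 15 had a shared exonic peak, or 46.9% beside the background of 12.0%. In either replicate 20 of them had an exonic peak, where the background was 24.0%. Those with most shared peaks were Nfib with 9, Sox6 with 7, Nfia and Sox11 with 5 each and Chd8 with 4. Nfia and Nfib are nuclear factor I proteins of gliogenesis, Sox6 and Sox11 are Sox proteins of precursors and neurons, and Chd8 is a chromatin remodeler. The median exonic length was 6344 bases in this list, 3051 in the 9 factors, 7610 in the precursor genes and 3707 in the myelin genes described next. Among 11 paralogs of the 9 factors, 2 had shared peaks, or 18.2%, near the background of 12.0% for so short a list. They were Sox9 with 4 and Lef1, a relative of Tcf7l2, with 1. Prdm8, a relative of Zfp488, had 3 peaks in replicate 2.

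None of 20 genes of myelin and mature oligodendrocytes had a shared peak, and 3 had exonic peaks in either replicate. The shares of all protein-coding genes are 12.0% and 24.0%. Mbp, a major myelin protein, had 2 in each replicate that did not overlap, and in replicate 2 Mobp, another myelin protein, had 2 and Nfasc, a cell adhesion protein of axons and glia, had 5. Of 10 genes of the precursors, none had a shared peak and 4 had exonic peaks, all in replicate 2. They were Cspg4, the NG2 proteoglycan, with 4, Gpr17, a receptor of committed precursors, with 4, and Pdgfra, the receptor for platelet-derived growth factor, and Cspg5 with 1 each. Replicate 2 also had more exonic peaks in all, 16084 against 11934. Among short lists of 8 markers each, shared peaks lay over 0 oligodendrocyte, 0 neuron, 1 astrocyte (Slc1a2) and 2 microglia genes (Tmem119 and Csf1r). With the background at 12.0%, these marker counts are close to that share for lists so short. The precursor genes are longer, with a median of 7610 exonic bases. In the longest group of all protein-coding genes 32.1% had a shared peak. The absence of shared peaks in the precursor genes was not tested against genes of like length. A peak list holds no transcript levels, so the makeup of the tissue could not be checked against its markers, and the part of transcript level in these counts was not tested.

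**Figure D4:**
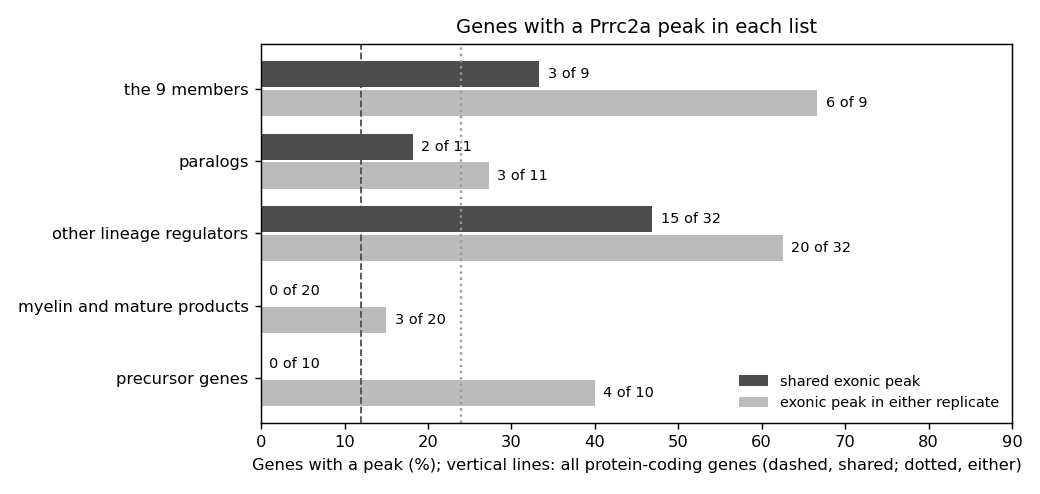
Share of genes with a shared exonic peak (dark bars) and with an exonic peak in either replicate (light bars), in percent, in the 9 factors and in 4 lists of genes related to them. The numbers beside the bars are counts, the dashed line is the share of all protein-coding genes with a shared exonic peak, 12.0%, and the dotted line the share with one in either replicate, 24.0%. No myelin or precursor gene had a shared peak.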

How the data were processed

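The deposited lists held, per the file headers, where each peak began and ended and a fold enrichment, a ratio, as the authors called them in each replicate separately. Per the methods, reads trimmed of adaptors were aligned to mm10 with TopHat, kept where uniquely mapped with a quality of at least 20, and used to call peaks with MACS2 at an FDR below 0.05. The submitters' processing notes name TopHat2 2.0.9 and MACS2 2.0.10, whereas the methods give later versions. The control library of the call is not given in the sources used here. The replicates are 2 samples of 1 group, which the study calls biological replicates. Which animals went into each is not stated, so how much of the spread lies between animals is unknown.

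Peaks were placed on GENCODE M21 genes (GRCm38, the same build as mm10) with Python 3.11.15, pandas 2.3.3 and pysam 0.24.0. A peak was exonic if at least 1 bp lay in any exon of the gene. Codons and CDS bases were counted in 1 coding transcript per gene. GGAC was searched on the gene's strand only, and counts per kb took exonic sites lying wholly in a peak. Windows for the motif shares were cut end to end from the joined exons of each protein-coding gene. RefSeq transcripts came from its annotation of the same build. Code was tested on simulated peaks and recovered 9 of 9 known quantities. The one named for GGAC on the reverse strand searched the forward sequence again, so the minus-strand search was not tested.

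All 9 genes are named whatever their values, and list genes are given as counts, with by name those with most shared peaks or in groups of 5 or fewer. The genes, lists and measures were chosen with earlier results of these data known. With 1 condition and no counts, no test was made.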

Additional observations from a re-analysis of the deposited data

How the results depend on the processing

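Of 50 values under other settings, 16 moved and 0 reversed. The other 34 lay within the limit set for a move, which for a count was 1.5 times and so took in a fall from 3 genes to 2. The count of 3 factors with a shared exonic peak became 1, Nkx2-2, when a fold enrichment of at least 4 was asked of both peaks. Nkx2-2 was kept there by its upstream pair (5.13 and 5.31), whose values many other peaks held, and not by its 3′UTR pair (3.81 and 3.46). The count was 2 with at least 2 (Nkx2-2 and Zfp488) or with at least 50% of both peaks overlapped, both of which left out Olig2. Counting the peaks of a single replicate gave 5 without either one. The 5 shared peaks became 1 at a fold enrichment of 4 and 7 to 8 with a single replicate. The shared portion of replicate 1 peaks, 71.4%, became 57.1% with 50% overlap, 62.5% with replicate 2 peaks counted, 80.0% at a fold enrichment of 2 and 50.0% at 4, and it needs both replicates. The background of 12.0% of protein-coding genes became 8.43% at a fold enrichment of 2, 1.59% at 4 and 16.5% to 21% with a single replicate. The mean of both replicates' median fold enrichment, 3.18 ± 0.296 (SD, n = 2), was 2.6 when the highest peak of each gene was taken and 2.97 to 3.38 with a single replicate. The mean density of GGAC under peaks, 3.27 ± 0.809 per kb (SD, n = 2), was 4.5 within CDS and 2.7 to 3.85 with a single replicate, and that of GGACT was 0.466. The single-replicate values of these last 2 measures were added after seeing the data. In transcripts marked basic the shared peaks were 4, since the upstream exons of Nkx2-2 are not among them.

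No paired analysis was possible because both samples belong to 1 group. The lists hold no reads, so the precision of a single peak, and whether an absent peak was near the threshold of the caller, could not be had.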
